A study of Homo sapiens with 14 samples.

Results

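Transcripts of 44 interferon-stimulated genes were followed in SH-EP, a human neuroblastoma line in long-standing laboratory use. The genes were taken from a list of symbols and matched to the Ensembl identifiers of the count table, which gave 44 of 61533 genes. Of these, 42 had enough reads to be tested, and IRF7 and IRF9 did not. By role there were 6 factors of the STAT and IRF families, 4 sensors of foreign nucleic acid and 34 effectors. Cells of the n-Myc SPARK-ON line were given lenalidomide (3 libraries) or DMSO, the vehicle (3 libraries), and n-Myc control cells, which have no SPARK-ON, were given lenalidomide (2 libraries) or DMSO (3 libraries). Both lines carry n-Myc per the labels, and every group had lenalidomide or DMSO. Per the series design, lenalidomide, a thalidomide analogue that binds cereblon, induces phase separation of n-Myc in the SPARK-ON line, and the line without SPARK-ON is the control for the drug itself. Per the series design the SPARK-ON line is 1 clone, so a difference between the lines cannot be told apart from a difference between clones. No dose or time was spelled out in the labels. The treatment labels end in ON, which may stand for overnight or for SPARK-ON and was not interpreted. The labels number the replicates and do not say whether they were separate cultures, so p-values measure the spread between these samples, which may be technical.

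Interferons are secreted proteins that cells release when they sense virus or stray nucleic acid. Type I interferon binds the receptor IFNAR1 and IFNAR2, the kinases JAK1 and TYK2 phosphorylate STAT proteins, among them STAT2, which join IRF9 in a complex that binds interferon-stimulated response elements in promoters. The genes so switched on encode sensors such as IFIH1 and the RIG-I protein, the factors of the pathway itself, and effectors that cut viral RNA, block entry or release of virus, or tag proteins with ISG15. Tumour cells, neuroblastoma included, often transcribe some of these genes with no virus present.

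Total counts were 6614671 to 15980539 reads for SPARK-ON with lenalidomide, 14647340 to 19244198 for SPARK-ON in DMSO, 16310438 to 19748302 for control with lenalidomide and 17212452 to 21511684 for control in DMSO. A count of 0 then allowed 0.143 to 0.441 CPM (counts scaled to a common library size) in a library, from 3 reads and for counting error only. The libraries of the control line spread more, with a biological coefficient of variation of 12.9%, against 4.71% in the SPARK-ON line. MYCN reads were abundant in every group (2510 ± 101, 2280 ± 109, 2550 ± 305 and 2430 ± 292 CPM in the order above) and did not pass in any comparison of the fit to all 11 libraries. With the 6 SPARK-ON libraries fitted by themselves, MYCN was higher with lenalidomide by 0.14 on the log2 scale (SE 0.036, edgeR adjusted p = 0.0233). All 8 mesenchymal neuroblastoma markers had reads, with summed levels of 1555 to 1692 CPM in SPARK-ON with lenalidomide, 1492 to 1538 in SPARK-ON in DMSO, 2873 to 2874 in control with lenalidomide and 2763 to 2900 in control in DMSO. Of these 8, FN1 was higher and CD44 and VIM were lower in the SPARK-ON line. Of 8 adrenergic markers, 3 had 0 reads in all 11 libraries, PHOX2A and ISL1 among them, and the 8 summed to 5 to 8.73 CPM in a library, most of it GATA3. HAND2, another of the 8, had 7, 14 and 0 reads in SPARK-ON with lenalidomide and 14, 17 and 26 in SPARK-ON in DMSO, against 0 and 0 in control with lenalidomide and 1, 2 and 3 in control in DMSO, and was called higher in both comparisons of the lines (edgeR adjusted p = 0.0021 in DMSO and 0.00659 with lenalidomide). CD3E had 0 reads among 5 leukocyte markers, whose summed level was 1.25 to 2.70 CPM in every group. Their part in the differences between the lines was not tested. In bulk RNA a change in the share of cells that express a gene and a change in RNA per cell cannot be told apart.

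Promoters of 33 of the 44 genes were found in a RefSeq table on GRCh38.p14, and the 250 bases before the start were searched for GAAA, any 2 bases and GAAA again, the core of the interferon-stimulated response element, on both strands, with overlapping matches kept. It was present in 21 of 33 genes (63.6%), against 3.71% of 27305 genes counted the same way. TTCNNNGAA, the gamma-activated site, was present in 10 of 33 (30.3%, against 8.09%), and CACGTG, the E-box that MYC proteins bind, in 3 of 33 (9.1%, against 7.73%). The sequences below show the core, in capitals, in 3 genes with higher counts in the SPARK-ON line (BST2, IFIT3 and IFI6), in ISG15, which was lower there in DMSO, and in IFIT1 and IFI44L, which passed in no comparison.
BST2 (chr19:17405631-17405880, minus strand): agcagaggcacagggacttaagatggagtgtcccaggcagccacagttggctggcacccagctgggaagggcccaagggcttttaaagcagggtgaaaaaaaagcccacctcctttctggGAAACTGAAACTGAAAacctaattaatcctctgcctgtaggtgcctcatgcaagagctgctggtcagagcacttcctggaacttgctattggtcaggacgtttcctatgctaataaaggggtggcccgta
IFIT3 (chr10:89327747-89327996, plus strand): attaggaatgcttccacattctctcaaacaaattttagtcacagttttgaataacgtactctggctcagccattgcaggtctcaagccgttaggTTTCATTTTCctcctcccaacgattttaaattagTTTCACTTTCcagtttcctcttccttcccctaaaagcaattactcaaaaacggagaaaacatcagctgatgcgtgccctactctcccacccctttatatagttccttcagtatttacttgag
IFI6 (chr1:27672193-27672442, minus strand): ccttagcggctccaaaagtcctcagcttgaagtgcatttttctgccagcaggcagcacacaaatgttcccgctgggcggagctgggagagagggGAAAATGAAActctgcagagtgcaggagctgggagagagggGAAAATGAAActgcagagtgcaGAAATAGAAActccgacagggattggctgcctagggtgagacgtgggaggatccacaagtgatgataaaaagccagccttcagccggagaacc
ISG15 (chr1:1013247-1013496, plus strand): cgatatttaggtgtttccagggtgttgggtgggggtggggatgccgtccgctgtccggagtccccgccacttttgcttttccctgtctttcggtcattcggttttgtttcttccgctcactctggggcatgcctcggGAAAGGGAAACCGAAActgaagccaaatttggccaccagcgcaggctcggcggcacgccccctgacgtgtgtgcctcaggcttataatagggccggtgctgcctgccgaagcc
IFIT1 (chr10:89392373-89392622, plus strand): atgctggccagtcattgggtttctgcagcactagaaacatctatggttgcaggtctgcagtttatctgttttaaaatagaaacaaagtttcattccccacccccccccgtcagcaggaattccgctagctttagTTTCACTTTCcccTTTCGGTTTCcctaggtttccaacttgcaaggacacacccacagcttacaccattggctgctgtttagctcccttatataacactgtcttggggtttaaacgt
IFI44L (chr1:78620198-78620447, plus strand): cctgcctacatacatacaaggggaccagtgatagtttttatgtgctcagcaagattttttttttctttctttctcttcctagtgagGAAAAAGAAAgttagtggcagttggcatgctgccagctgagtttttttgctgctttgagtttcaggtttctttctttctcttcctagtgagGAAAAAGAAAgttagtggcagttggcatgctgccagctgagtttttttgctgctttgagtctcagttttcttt
The core is present in promoters of genes with each outcome. It stood in 9 of 15 genes (60.0%) that were higher in at least 1 comparison of the lines, in 4 of 4 (100%) that were lower, and in 8 of 13 (61.5%) that passed in neither, and the other gene with a promoter in the table was not tested. Genes without a promoter there were IRF2, IRF3, IRF7, GBP2, IFIT2, IFITM2, MX2, OAS2, OASL, TRIM22 and USP18. IRF2 and IRF3 were lower in both comparisons of the lines, and the 4 of 4 leaves them out. A match is a description of the letters and not of binding.

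Levels were compared between genes per length, as reads per kilobase of exon, from CPM (RPKM). IFITM3, which blocks fusion of viruses with endosomes, was the highest member in all 4 groups, at 105 ± 5.86 RPKM in SPARK-ON with lenalidomide, 113 ± 7.55 in SPARK-ON in DMSO, 78.8 ± 14.0 in control with lenalidomide and 85.6 ± 8.78 in control in DMSO (SD, n = 3, 3, 2 and 3). IFI6, a mitochondrial protein that restrains flaviviruses, followed in SPARK-ON in DMSO at 35.8 ± 4.15 RPKM, and in control in DMSO stood at 20.5 ± 9.48 beside ISG15 at 20.7 ± 4.58, with overlapping libraries. In SPARK-ON in DMSO, IFI44 came next at 17.8 ± 0.880 RPKM, apart from the genes on either side of it. IFIT5, UBE2L6, ISG15 and IFI16 followed between 14.5 and 13.6 RPKM, and neighbours among these 4 overlapped. Under 1 RPKM in the mean were 12 members in each SPARK-ON group and 15 in each control group, among them OAS1, OAS2, OASL, MX2, IFI27, XAF1 and the sensor gene DDX58 (now RIGI), which encodes RIG-I.

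**Figure D1:**
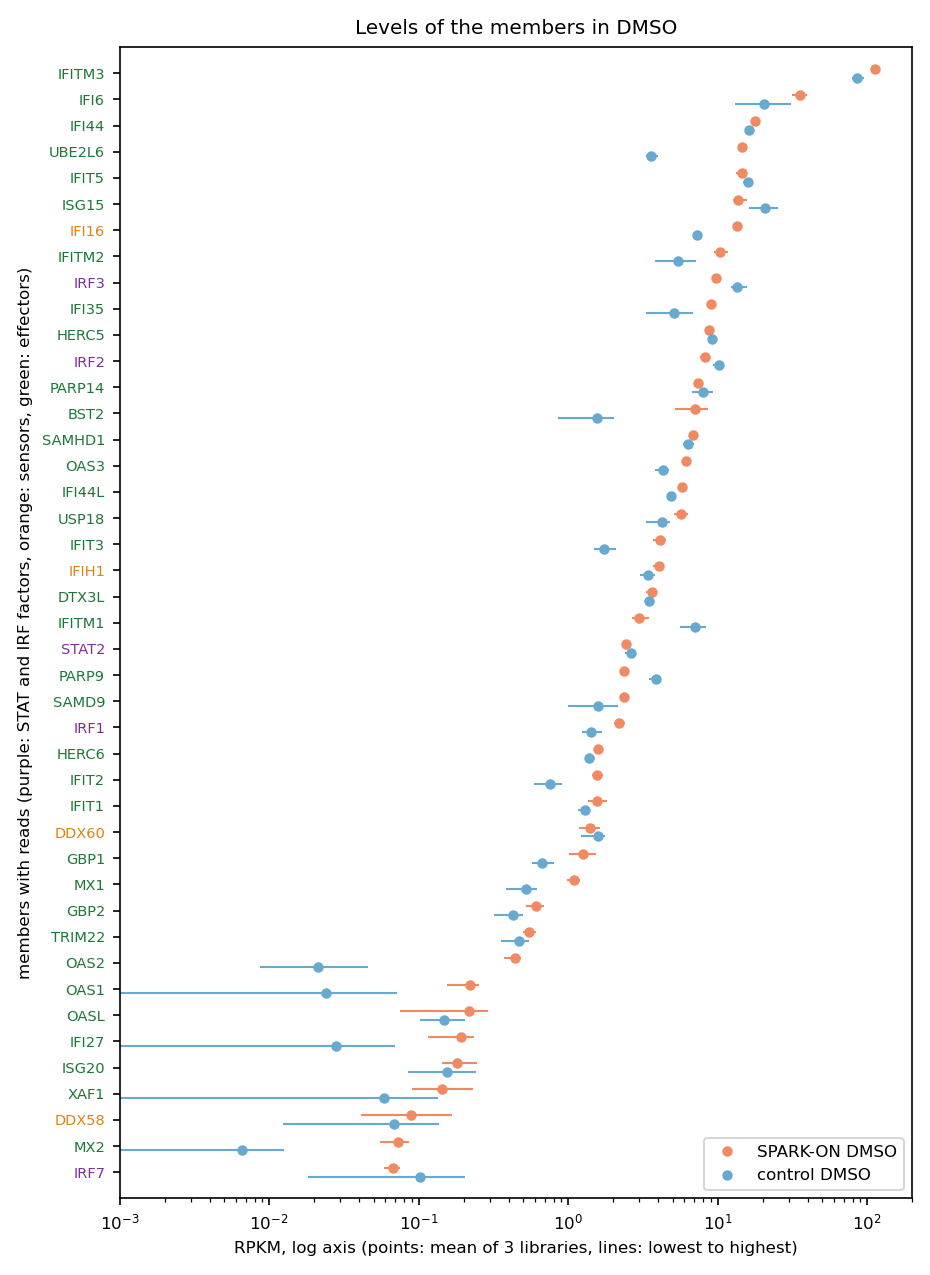
Levels in DMSO of the members with reads, in RPKM on a log axis, with SPARK-ON (orange points) above control (blue points). Points are means of 3 libraries, lines run from the lowest to the highest library, and a line that reaches the left edge has a library at 0. UBE2L6, BST2, OAS1, OAS2, IFI27 and MX2 lie furthest apart between the lines, and IFITM3 is highest in both.

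Summed over members, SPARK-ON libraries held 1030 to 1040 CPM with lenalidomide and 984 to 1030 CPM in DMSO, and control libraries 869 CPM with lenalidomide in both and 831 to 895 CPM in DMSO. The sums of the roles did not share a direction. Sensors summed to 94.7 to 117 CPM in SPARK-ON with lenalidomide and 98.4 to 106 in SPARK-ON in DMSO, against 64.9 to 69.7 in control with lenalidomide and 63.4 to 72.6 in control in DMSO. Effectors summed to 813 to 845 and 788 to 840 CPM in the SPARK-ON groups, against 689 to 696 and 662 to 708 in the control groups. STAT and IRF factors lay the other way, with 95.6 to 102 and 92.2 to 97.4 CPM in SPARK-ON, against 104 to 115 and 104 to 124 in control. IFI16 makes up most of the sensor sum, and IFITM3 is the largest term in the effector sum. IRF3 and IRF2 are the largest terms in the sum of the factors, and both were lower in SPARK-ON. IRF1 was higher there, and STAT2 was higher with lenalidomide, so that sum does not give the direction of each factor.

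The question asked of lenalidomide in SPARK-ON cells is what the onset of n-Myc phase separation does to transcription. No member passed the threshold of 0.05 on the adjusted p (0 of 42), where 0.0685% of all 16056 genes tested did. The median log2 change of the members was 0.09, against 0.007 over all genes, 26 of 42 were above 0, and 3 had an unadjusted p under 0.05: STAT2, IFI44 and GBP1. DESeq2 called 1 member, STAT2 (0.321% of 14018 genes called), and limma-voom called none.

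STAT2, a subunit of the type I interferon complex, had the smallest p of the members. Its level was 20.7, 22.1 and 22.4 CPM in SPARK-ON with lenalidomide, against 14.9, 14.6 and 15.1 CPM in SPARK-ON in DMSO. The 2 groups did not overlap, and each library with lenalidomide lay above all 8 other libraries used here. The log2 change by edgeR was 0.54 (SE 0.11, adjusted p = 0.0769). With 1 library left out the adjusted p was 0.235 to 0.646. By DESeq2 the adjusted p was 0.0126. When the 6 SPARK-ON libraries were fitted by themselves it was 0.000779, in which 2.60% of 14652 genes were called, and it was 0.00331 to 0.0142 with each of these libraries left out. In control cells STAT2 was 15.0 and 14.7 CPM with lenalidomide and 16.9, 14.7 and 17.0 CPM in DMSO, a log2 change of -0.13 (SE 0.12, adjusted p = 1). The difference between the lines in the response was 0.67 (SE 0.16, adjusted p = 0.869).

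**Figure D2:**
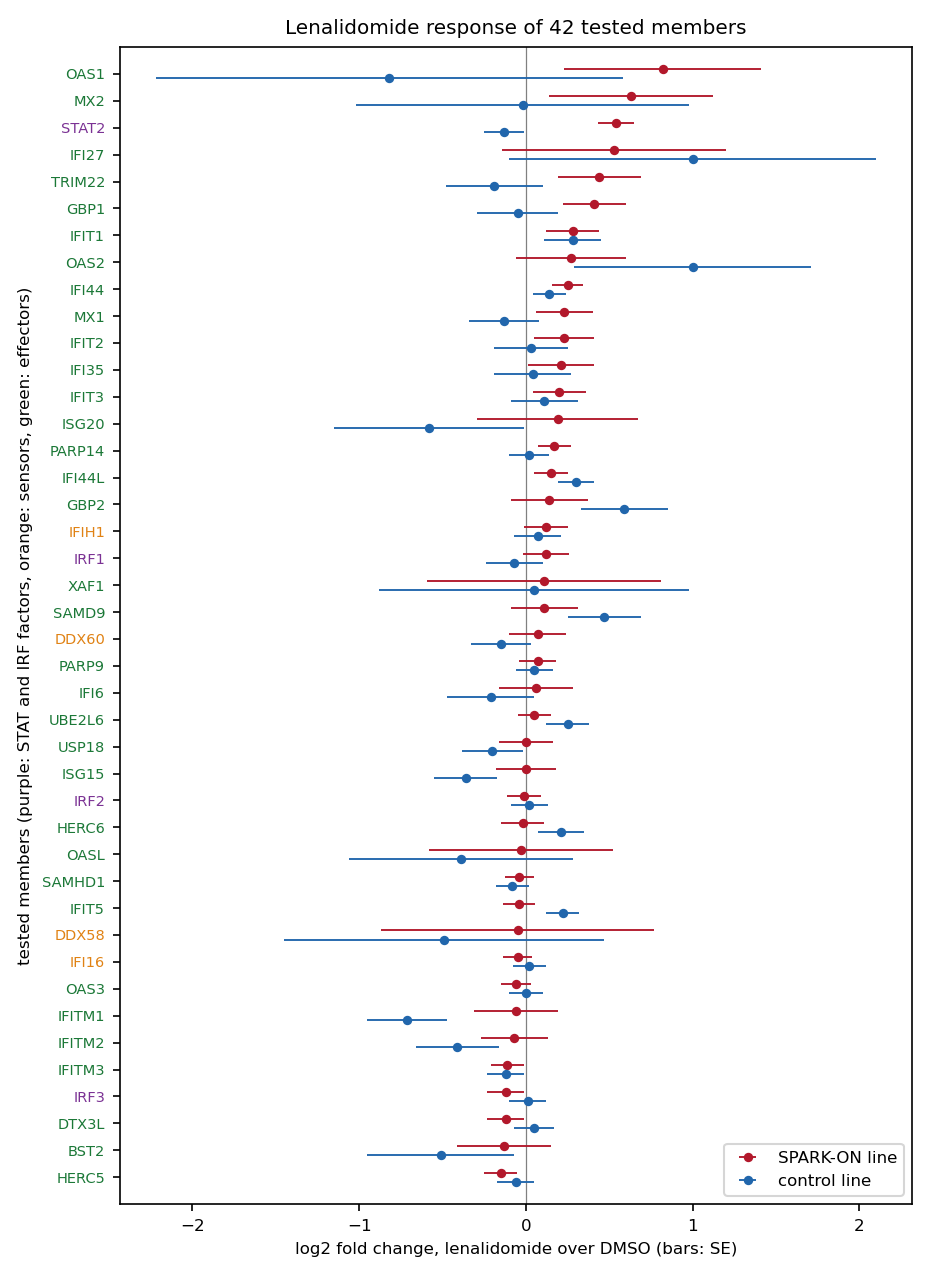
Log2 change with lenalidomide over DMSO for the 42 tested members, ordered by the change in the SPARK-ON line, with the SPARK-ON line (red) above the control line (blue). Bars are SE. STAT2 stands at 0.54 in SPARK-ON cells with a short bar, and OAS1, at 0.82, has a long one.

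The other factors showed no called change with lenalidomide in SPARK-ON cells. IRF1, which activates many of these genes, had a log2 change of 0.12 (SE 0.14), IRF2, its antagonist at the same sites, -0.01 (SE 0.10), and IRF3, the factor that sensors switch on, -0.12 (SE 0.11). Among sensors the changes ran from -0.05 to 0.12. Among the 34 effectors they ran from -0.15 for HERC5, a ligase for ISG15, to 0.82 for OAS1, and 22 were above 0. IFI44 had 42.8, 46.9 and 38.4 CPM with lenalidomide, against 36.5, 34.2 and 37.8 CPM in DMSO. These libraries did not overlap, and the log2 change was 0.25 (SE 0.095, adjusted p = 0.815). When the 6 SPARK-ON libraries were fitted by themselves IFI44 had adjusted p = 0.0603, and with 1 of them left out 0.0243 (without SPARK-ON lenalidomide replicate 3) to 0.416. GBP1, a guanylate-binding GTPase, had 8.60, 7.40 and 9.56 CPM with lenalidomide, against 5.10, 6.14 and 7.67 CPM in DMSO. Its groups overlapped, with a log2 change of 0.41 (SE 0.19, adjusted p = 0.924).

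In the control line, which lacks SPARK-ON, 0 of 42 members passed with edgeR (0.0436% of all genes did), and none with DESeq2 or limma-voom. The median log2 change was 0.001, 21 of 42 were above 0, and 5 had an unadjusted p under 0.05: IFITM1 and, in the other direction, IFI44L, GBP2, SAMD9 and IFIT5. IFITM1, which bars virus at the cell surface, had 4.30 and 5.11 CPM with lenalidomide, against 9.06, 6.07 and 7.93 CPM in DMSO. Its groups did not overlap, and the log2 change was -0.71 (SE 0.24, adjusted p = 0.873). The response of the lines differed for 0 of 42 members (0% of all genes were called, and 3 genes by DESeq2, none of them a member), with 1 unadjusted p under 0.05, that of STAT2. With 2 control libraries that had lenalidomide, these comparisons leave wide errors, up to an SE of 1.40 for OAS1 in the control line.

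The lines themselves differed. In DMSO, 19 members were higher and 5 lower in SPARK-ON than in control cells, 24 of 42, where 41.6% of all genes were called, 21.1% higher and 20.4% lower. With lenalidomide, 19 were higher and 4 lower, 23 of 42, where 39.4% of all genes were called, 19.7% higher and 19.7% lower. The count of higher members was above the share over all genes in both comparisons and that of lower members below it, and no test was made of this difference. The members were chosen with earlier results of these data known, so that difference cannot be read apart from the choice. The median log2 difference of members was 0.42 in DMSO and 0.59 with lenalidomide, against 0.011 and 0.015 over all genes. Libraries of the lines did not overlap for 27 of the 42 members in DMSO, where 50.8% of all genes did not. With lenalidomide they did not for 29, where 59.6% of all genes did not. A lack of overlap between the lines was thus common over all genes. When libraries were scaled by size alone, the median of all genes moved up by 0.091 and 0.106, the members called were 22 higher and 4 lower in DMSO and 23 higher and 3 lower with lenalidomide. Over all 16056 genes, that scaling called 4262 higher and 2547 lower in DMSO, and 4045 and 2396 with lenalidomide. With that scaling the share of higher genes among all calls was 62.6% in DMSO and 62.8% with lenalidomide, against 50.9% and 50% in the fit reported here.

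The comparisons of the lines in DMSO and with lenalidomide share no library, but both come from 1 fit with a shared spread for each gene. Both called 20 members, 17 higher and 3 lower, with the same direction in each. That is 83.3% of the calls of members in DMSO and 87.0% of those with lenalidomide. The share of all genes called in both was not computed, so this count has no background beside it. Higher in both were BST2, GBP1, IFI16, IFI35, IFI6, IFIT2, IFIT3, IFITM2, IFITM3, IRF1, MX1, MX2, OAS1, OAS2, OAS3, UBE2L6 and USP18, and lower in both were IRF2, IRF3 and PARP9. Called in DMSO alone were IFI27, SAMD9, IFITM1 and ISG15, and called with lenalidomide alone were IFIT5, STAT2 and TRIM22. No test of the difference between the lines' responses passed for these 7. Over the 42 members the log2 differences had Pearson's r = 0.94 and Spearman's rho = 0.923, as a description across genes of libraries from the same lines.

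**Figure D3:**
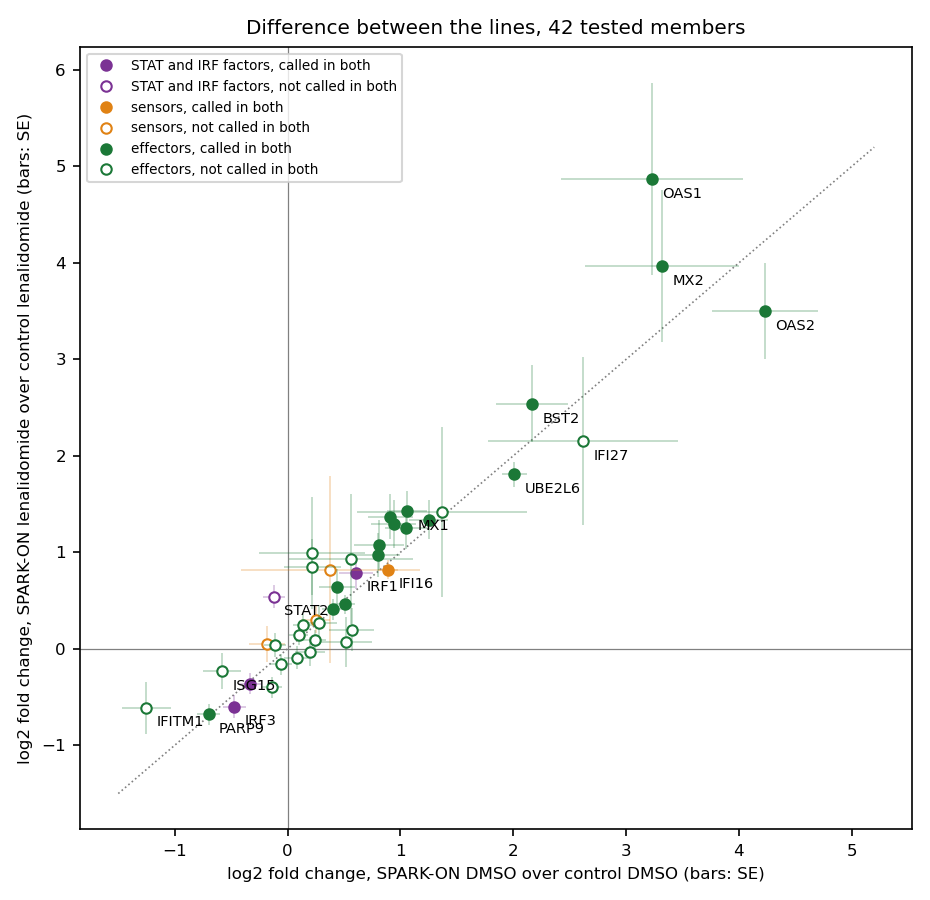
Log2 difference between the lines for the 42 tested members, with lenalidomide (vertical axis) against in DMSO (horizontal axis). Bars are SE, filled points passed in both comparisons, colours mark roles, and the dotted line marks equal values. OAS1, MX2, OAS2, BST2, IFI27 and UBE2L6 lie furthest up, and IRF3 and PARP9 lie below 0 on both axes.

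**Figure D4:**
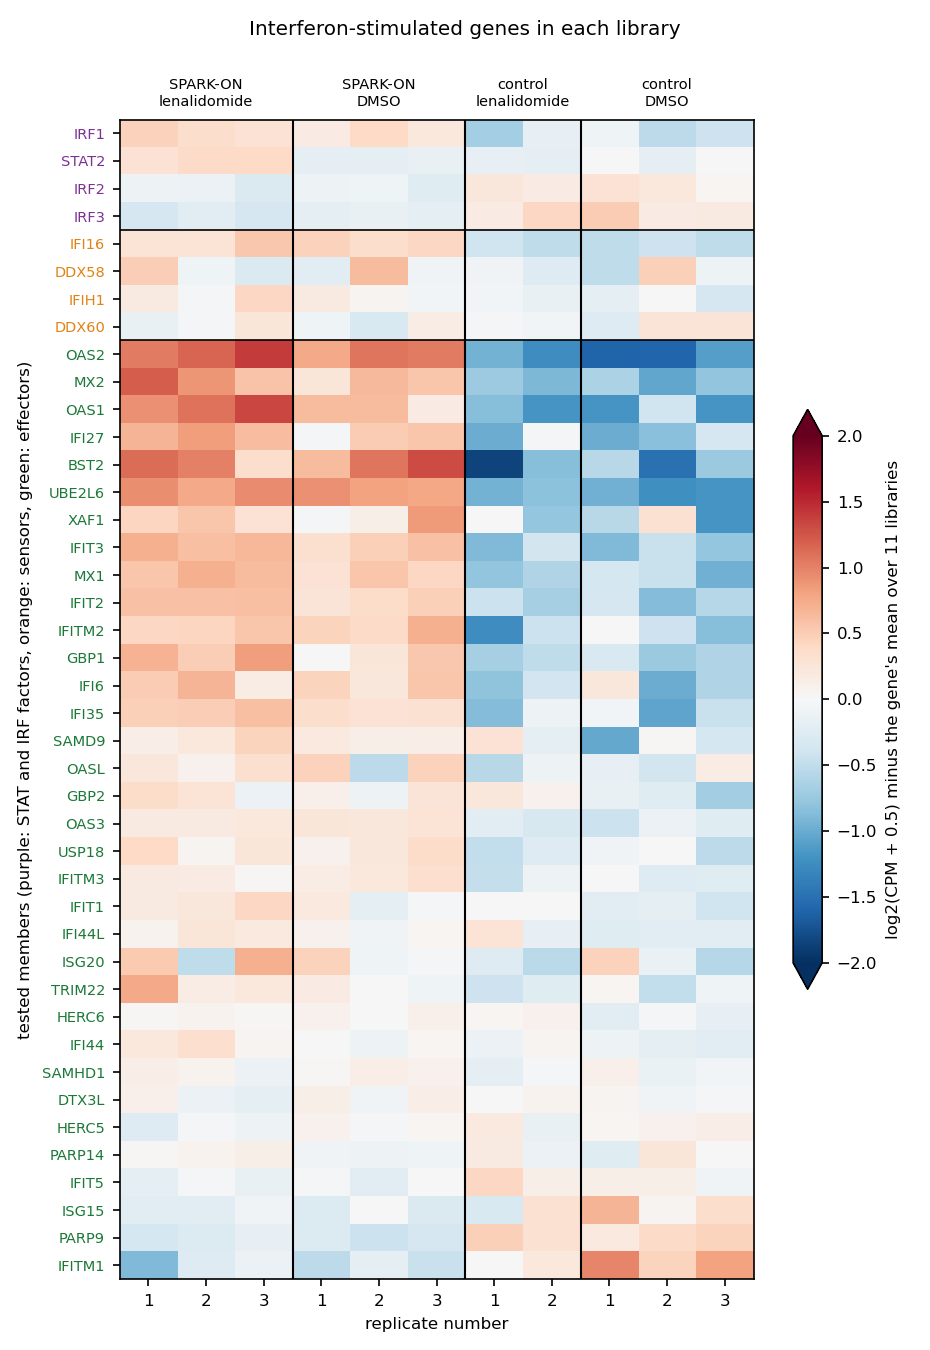
Level of each tested member in each library, as log2(CPM + 0.5) minus the gene's mean over the 11 libraries, with members grouped by role and ordered by the difference in DMSO. The upper effectors are above their mean in the SPARK-ON libraries and below it in the control libraries, and PARP9 and IFITM1 at the foot run the other way.

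Among the STAT and IRF factors, 1 was higher and 2 were lower in DMSO, and 2 were higher and 2 lower with lenalidomide, of 4 tested, where 41.6% and 39.4% of all genes were called. So short a list says little against that background. IRF1 had 19.6, 18.1 and 17.4 CPM in SPARK-ON with lenalidomide and 15.9, 18.7 and 16.4 CPM in SPARK-ON in DMSO, against 8.66 and 12.5 CPM in control with lenalidomide and 13.2, 9.70 and 10.5 CPM in control in DMSO. Every SPARK-ON library lay above every control library. The log2 difference was 0.61 in DMSO (SE 0.15, adjusted p = 0.00255) and 0.79 with lenalidomide (SE 0.17, adjusted p = 0.00106). In one annotation (GENCODE 29) 22.0% of its exon bases lie in exons of a transcript on the other strand, and the strand setting of the counting is not known.

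IRF3 and IRF2 were lower. IRF3 had 32.8, 35.8 and 32.8 CPM in SPARK-ON with lenalidomide and 36.4, 37.4 and 36.8 CPM in SPARK-ON in DMSO, against 46.7 and 55.7 CPM in control with lenalidomide and 59.5, 46.5 and 47.0 CPM in control in DMSO. Again no SPARK-ON library reached a control library. The lines differed on the log2 scale by -0.47 in DMSO (SE 0.10, adjusted p = 0.00122) and -0.60 with lenalidomide (SE 0.12, adjusted p = 0.000477). Exons of BCL2L12 on the other strand cover 19.3% of its exon bases. IRF2 averaged 25.1 ± 1.72 and 25.5 ± 1.47 CPM in SPARK-ON with lenalidomide and in DMSO, against 32.4 ± 0.961 and 32.0 ± 2.71 CPM in control with lenalidomide and in DMSO (SD). Its log2 difference was -0.33 in DMSO (SE 0.096, adjusted p = 0.0106) and -0.36 with lenalidomide (SE 0.11, adjusted p = 0.0132). Those calls were lost without SPARK-ON DMSO replicate 3 (adjusted p = 0.0616), without control lenalidomide replicate 1 (0.0754) and when scaled by library size alone (0.0584 in DMSO and 0.0709 with lenalidomide).

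STAT2 did not pass in DMSO, at a log2 difference of -0.12 (SE 0.10, adjusted p = 0.369), and was higher with lenalidomide at 0.54 (SE 0.12, adjusted p = 0.00135). IRF7, the factor that amplifies interferon production, had 41 reads over the 11 libraries and 0 to 9 in any one. IRF9, the DNA-binding subunit of the STAT complex, was listed at 0 in all 11 libraries. In GENCODE 29, 48.4% of its exon bases lie in exons of a read-through gene on the same strand, which was also at 0, and whether reads were left out in counting there was not tested.

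**Figure D5:**
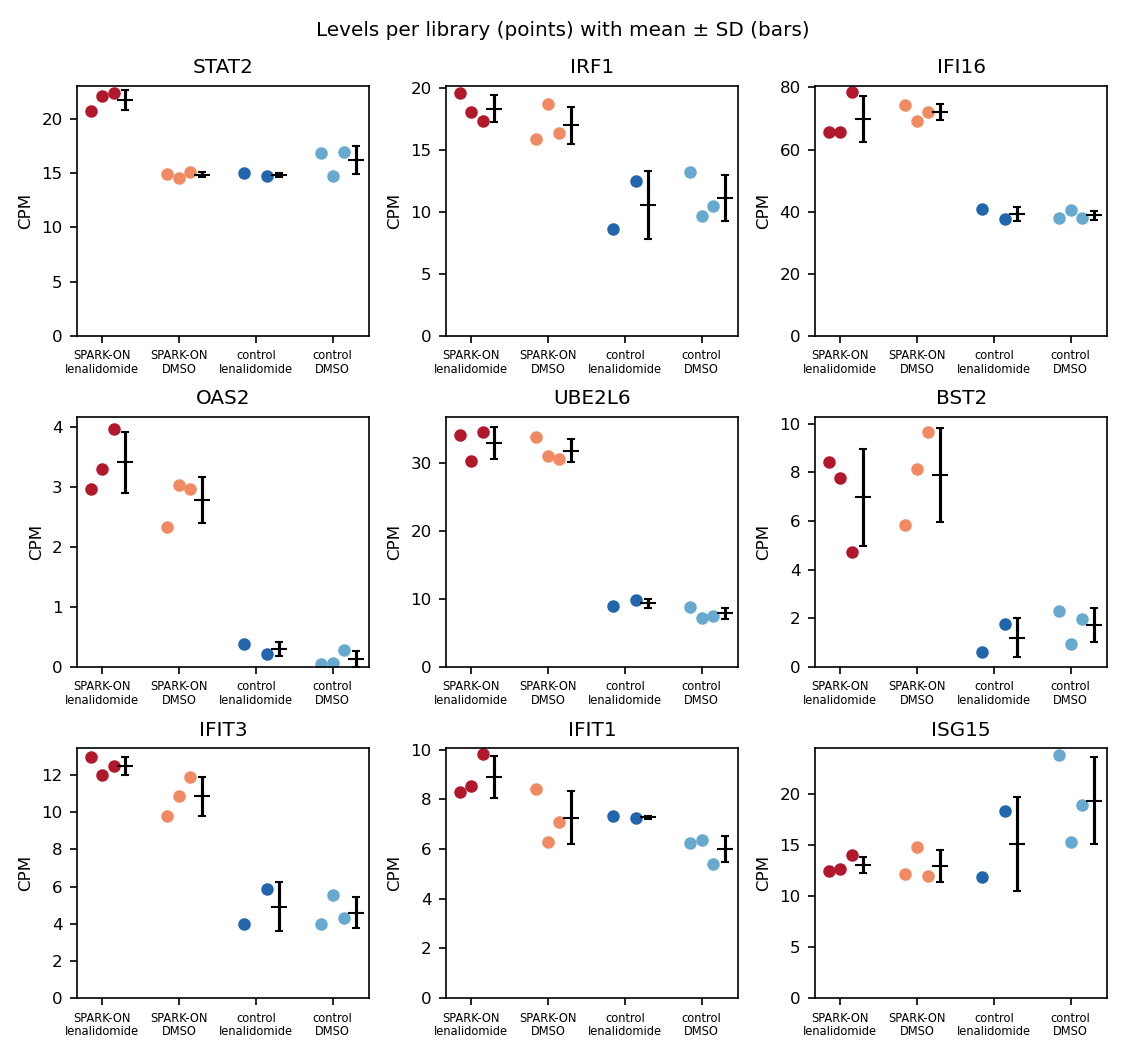
CPM of 9 members in each library (points) with the mean and SD of each group (bars), in the order SPARK-ON lenalidomide, SPARK-ON DMSO, control lenalidomide and control DMSO. STAT2 is high in the 3 SPARK-ON libraries with lenalidomide, IRF1, IFI16, OAS2, UBE2L6, BST2 and IFIT3 are high in all 6 SPARK-ON libraries, IFIT1 overlaps between the lines, and ISG15 lies higher in control in DMSO.

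Of the 4 sensors, 1 was higher in both comparisons, where 21.1% of all genes were higher in DMSO and 19.7% with lenalidomide. A list of 4 says little against that background. IFI16, a nuclear sensor of DNA, had 65.5, 65.5 and 78.4 CPM in SPARK-ON with lenalidomide and 74.5, 69.3 and 72.2 CPM in SPARK-ON in DMSO, against 40.8 and 37.7 CPM in control with lenalidomide and 38.0, 40.5 and 37.9 CPM in control in DMSO. The lines did not overlap. In DMSO the groups of 50.8% of all genes did not overlap either, and with lenalidomide those of 59.6%. The log2 difference was 0.89 in DMSO (SE 0.087, adjusted p = 1.52e-07) and 0.82 with lenalidomide (SE 0.10, adjusted p = 3.12e-06). IFIH1, which encodes the double-stranded RNA sensor MDA5, had 22.4, 19.2 and 26.3 CPM in SPARK-ON with lenalidomide, against 18.8 and 17.6 CPM in control with lenalidomide. Its log2 difference did not pass, at 0.30 (SE 0.14, adjusted p = 0.113), nor in DMSO at 0.25 (SE 0.13, adjusted p = 0.131). DDX60, a helper of RIG-I, was between 7.98 and 11.9 CPM in every library and did not pass. DDX58 had 57 reads over all libraries, too few to read a difference from.

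The OAS enzymes, which make the second messenger that activates RNase L, and the MX GTPases, which trap viral nucleocapsids, differed widely within each family. OAS1, OAS2 and MX2 had the 3 largest log2 differences of the members in both comparisons, and few reads. OAS2 had 2.97, 3.30 and 3.97 CPM in SPARK-ON with lenalidomide and 2.34, 3.04 and 2.97 CPM in SPARK-ON in DMSO, against 0.379 and 0.213 CPM in control with lenalidomide and 0.0543, 0.0595 and 0.287 CPM in control in DMSO. Every control library lay far below the lowest SPARK-ON library. Over the summed reads the ratio was 19.5 in DMSO (143 against 8 reads, 95% exact interval for counting error 9.65 to 46.1) and 11.3 with lenalidomide (130 against 10 reads, 5.98 to 24.2), and the fitted log2 differences were 4.23 (SE 0.47, adjusted p = 9.35e-07) and 3.5 (SE 0.50, adjusted p = 2.18e-05). Without control DMSO replicate 3 the value in DMSO was 5.43.

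OAS1 had 1.64, 1.90 and 2.35 CPM in SPARK-ON with lenalidomide and 1.26, 1.25 and 0.767 CPM in SPARK-ON in DMSO, against 0.126 and 0 CPM in control with lenalidomide and 0, 0.357 and 0 CPM in control in DMSO. Of 5 control libraries, 3 had no read. The ratio of summed reads was 10 in DMSO (55 against 6 reads, interval 4.32 to 28.5) and 32.3 with lenalidomide (74 against 2 reads, interval 8.63 to 272). The fitted log2 differences were 3.23 (SE 0.81, adjusted p = 0.00356) and 4.87 (SE 1.0, adjusted p = 0.00104), and they moved with single control libraries, to 2.60 without control DMSO replicate 3 and to 3.85 without control lenalidomide replicate 2. Without control DMSO replicate 2 or control lenalidomide replicate 1 the control libraries left were at 0, and the fitted values of 7.17 and 8.0 are no bounds. OAS3, the large and most abundant of the OAS genes, differed by less: it averaged 48.9 ± 0.608 and 50.8 ± 0.882 CPM in SPARK-ON with lenalidomide and in DMSO, against 35.5 ± 1.90 and 35.6 ± 3.83 CPM in control with lenalidomide and in DMSO. Its log2 difference was 0.51 in DMSO (SE 0.088, adjusted p = 0.000124) and 0.46 with lenalidomide (SE 0.10, adjusted p = 0.00136). The 3 genes lie side by side on chromosome 12, from OAS1 at 112906777 to the end of OAS2 at 113011723 (GRCh38). OASL, which lacks the enzyme activity and lies elsewhere on that chromosome, had 115 reads in all and did not pass.

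MX1 had 10.4, 11.7 and 11 CPM in SPARK-ON with lenalidomide and 8.52, 10.4 and 9.36 CPM in SPARK-ON in DMSO, against 3.79 and 4.36 CPM in control with lenalidomide and 5.32, 4.94 and 3.30 CPM in control in DMSO. No libraries of the lines overlapped. As a log2 difference this was 1.06 in DMSO (SE 0.18, adjusted p = 8.4e-05) and 1.43 with lenalidomide (SE 0.21, adjusted p = 2.34e-05). Its neighbour on chromosome 21, MX2, which acts at the nuclear pore, stood near the limit of detection: the ratio of summed reads was 10.7 in DMSO (49 against 5 reads, interval 4.29 to 34.5) and 17.7 with lenalidomide (61 against 3 reads, interval 5.79 to 88.4). The fitted log2 differences were 3.32 (SE 0.68, adjusted p = 0.000648) and 3.97 (SE 0.79, adjusted p = 0.000597), and 3.99 in DMSO without control DMSO replicate 1 and 4.61 with lenalidomide without control lenalidomide replicate 1.

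The IFIT genes, whose proteins bind viral RNA ends, form a cluster on chromosome 10 from 89283694 to 89421001 (GRCh38) and did not move as 1 block. IFIT3 had 13.0, 12 and 12.5 CPM in SPARK-ON with lenalidomide and 9.78, 10.9 and 11.9 CPM in SPARK-ON in DMSO, against 3.98 and 5.85 CPM in control with lenalidomide and 3.96, 5.53 and 4.30 CPM in control in DMSO. SPARK-ON libraries were all higher. SPARK-ON over control gave a log2 difference of 1.25 in DMSO (SE 0.17, adjusted p = 9.7e-06) and 1.34 with lenalidomide (SE 0.20, adjusted p = 2.69e-05). IFIT2 followed, with 7.56 ± 0.0759 and 6.45 ± 0.533 CPM in SPARK-ON with lenalidomide and in DMSO, against 3.18 ± 0.427 and 3.10 ± 0.653 CPM in control with lenalidomide and in DMSO, and log2 differences of 1.05 in DMSO (SE 0.19, adjusted p = 0.000179) and 1.25 with lenalidomide (SE 0.22, adjusted p = 0.000165). IFIT1, the family member best known as an induced marker, did not pass. It had 8.30, 8.56 and 9.85 CPM in SPARK-ON with lenalidomide and 8.40, 6.27 and 7.11 CPM in SPARK-ON in DMSO, against 7.33 and 7.24 CPM in control with lenalidomide and 6.24, 6.37 and 5.40 CPM in control in DMSO. Its log2 difference was 0.28 in DMSO (SE 0.16, adjusted p = 0.17) and 0.27 with lenalidomide (SE 0.18, adjusted p = 0.237). IFIT5 was lower with lenalidomide at -0.40 (SE 0.11, adjusted p = 0.00566), a call lost without control lenalidomide replicate 1 (-0.25, adjusted p = 0.13), and did not pass in DMSO at -0.14 (SE 0.095, adjusted p = 0.250). IFIT1 and IFIT3 both carry the core printed above, 2 copies each.

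Among the membrane proteins that bar or hold virus, BST2, or tetherin, which holds budding virus at the cell surface, had 8.42, 7.77 and 4.71 CPM in SPARK-ON with lenalidomide and 5.82, 8.12 and 9.66 CPM in SPARK-ON in DMSO, against 0.632 and 1.76 CPM in control with lenalidomide and 2.28, 0.952 and 1.96 CPM in control in DMSO. The lowest SPARK-ON library was above the highest control library. The log2 difference was 2.17 in DMSO (SE 0.32, adjusted p = 2.17e-05) and 2.54 with lenalidomide (SE 0.40, adjusted p = 5.57e-05), and 3.49 without control lenalidomide replicate 2. The control libraries shared part of their order for several genes. Control lenalidomide replicate 1 and control DMSO replicate 2 were the lowest 2 of 5 for BST2, IFI6, IFI35 and ISG15. Which of those 2 was lower differed between the genes. Control DMSO replicate 1 was the highest for each gene. IFITM3 had 146, 145 and 132 CPM in SPARK-ON with lenalidomide and 144, 150 and 164 CPM in SPARK-ON in DMSO, against 92.9 and 120 CPM in control with lenalidomide and 129, 108 and 109 CPM in control in DMSO. Its log2 difference was 0.40 in DMSO (SE 0.096, adjusted p = 0.00245) and 0.41 with lenalidomide (SE 0.11, adjusted p = 0.00609), the last lost without control lenalidomide replicate 1 (0.24, adjusted p = 0.137). Exons of a transcript on the other strand cover 21.3% of its exon bases.

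IFITM2 and IFITM1 went opposite ways. IFITM2 had 14.8, 15.0 and 16.5 CPM in SPARK-ON with lenalidomide and 15.2, 14.6 and 18.3 CPM in SPARK-ON in DMSO, against 4.36 and 8.04 CPM in control with lenalidomide and 11.1, 8.15 and 5.88 CPM in control in DMSO. The lines differed on the log2 scale by 0.94 in DMSO (SE 0.20, adjusted p = 0.0011) and 1.29 with lenalidomide (SE 0.25, adjusted p = 0.000398). IFITM1 was lower, with 2.12, 3.55 and 3.97 CPM in SPARK-ON with lenalidomide and 2.88, 3.76 and 3.07 CPM in SPARK-ON in DMSO, against 4.30 and 5.11 CPM in control with lenalidomide and 9.06, 6.07 and 7.93 CPM in control in DMSO. The lines did not overlap for either gene. For IFITM1 the log2 difference was -1.25 in DMSO (SE 0.22, adjusted p = 0.000185) and, with lenalidomide, -0.61 (SE 0.27, adjusted p = 0.083), and the difference between the lines in the response was 0.65 (SE 0.35, adjusted p = 1). These neighbours on chromosome 11 share 351 exon bases on 1 strand in GENCODE 29, 32.5% of those of IFITM1 and 22.7% of those of IFITM2, and the IFITM genes are near copies of each other, so the split of reads between them is uncertain.

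ISG15 and the enzymes that attach or remove it did not share a direction. UBE2L6, the conjugating enzyme for ISG15, had 34.1, 30.3 and 34.6 CPM in SPARK-ON with lenalidomide and 33.8, 31.1 and 30.6 CPM in SPARK-ON in DMSO, against 8.91 and 9.79 CPM in control with lenalidomide and 8.79, 7.26 and 7.55 CPM in control in DMSO. This was the smallest p of all members in both comparisons, with a log2 difference of 2.01 in DMSO (SE 0.11, adjusted p = 7.5e-11) and 1.81 with lenalidomide (SE 0.13, adjusted p = 3.07e-09). ISG15 itself had 12.5, 12.7 and 14.0 CPM in SPARK-ON with lenalidomide and 12.2, 14.8 and 12 CPM in SPARK-ON in DMSO, against 11.9 and 18.4 CPM in control with lenalidomide and 23.9, 15.3 and 19.0 CPM in control in DMSO. It was lower in SPARK-ON in DMSO at -0.58 (SE 0.17, adjusted p = 0.00911), with no overlap, and did not pass with lenalidomide at -0.23 (SE 0.19, adjusted p = 0.380), where the libraries overlapped. USP18, which removes ISG15 and dampens the receptor, averaged 12.2 ± 1.49 and 12.1 ± 1.29 CPM in SPARK-ON with lenalidomide and in DMSO, against 7.83 ± 0.969 and 9.03 ± 1.75 CPM in control with lenalidomide and in DMSO. Its log2 difference was 0.44 in DMSO (SE 0.16, adjusted p = 0.0344) and 0.64 with lenalidomide (SE 0.19, adjusted p = 0.0111). The call in DMSO was lost without SPARK-ON DMSO replicate 2 (0.0754), SPARK-ON DMSO replicate 3 (0.144) or control DMSO replicate 3 (0.176, at a log2 difference of 0.28), with DESeq2 (0.0604) and with no other groups in the model (0.0506), and that with lenalidomide without SPARK-ON lenalidomide replicate 1 (0.0623) or control lenalidomide replicate 1 (0.1). The ligases HERC5 and HERC6 did not pass.

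PARP9, an ADP-ribosyltransferase that works in a complex with the ubiquitin ligase DTX3L, had 21.0, 22.2 and 24.1 CPM in SPARK-ON with lenalidomide and 22.3, 20.0 and 21.3 CPM in SPARK-ON in DMSO, against 37.9 and 33.4 CPM in control with lenalidomide and 31.1, 35.3 and 36.9 CPM in control in DMSO. It was lower with no overlap, by a log2 difference of -0.70 in DMSO (SE 0.10, adjusted p = 1.73e-05) and -0.68 with lenalidomide (SE 0.11, adjusted p = 0.000106). DTX3L, which shares a bidirectional promoter region with PARP9 on chromosome 3, did not pass, at 0.08 in DMSO (SE 0.11) and -0.09 with lenalidomide (SE 0.12), nor did PARP14, at -0.11 (SE 0.10) and 0.04 (SE 0.12).

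IFI6 had 33.0, 37.2 and 25.7 CPM in SPARK-ON with lenalidomide and 31.7, 27.1 and 34.2 CPM in SPARK-ON in DMSO, against 13.0 and 17.5 CPM in control with lenalidomide and 27.0, 11.3 and 15.0 CPM in control in DMSO. In DMSO the groups nearly touched, since control DMSO replicate 1 was at 27.0 CPM and SPARK-ON DMSO replicate 2 at 27.1 CPM. The log2 difference was 0.81 in DMSO (SE 0.22, adjusted p = 0.00638), 1.22 without control DMSO replicate 1, and 1.08 with lenalidomide (SE 0.26, adjusted p = 0.00254). IFI35, which binds NMI, averaged 20.7 ± 1.09 and 17.8 ± 0.486 CPM in SPARK-ON with lenalidomide and in DMSO, against 10.4 ± 3.97 and 10.1 ± 3.54 CPM in control with lenalidomide and in DMSO. Its log2 difference was 0.80 in DMSO (SE 0.20, adjusted p = 0.00359) and 0.97 with lenalidomide (SE 0.23, adjusted p = 0.00269), the last lost without control lenalidomide replicate 1 (0.64, adjusted p = 0.0587). IFI27 had few reads, with a ratio of 6.40 in DMSO (41 against 7 reads, interval 2.84 to 16.9) and 4.46 with lenalidomide (46 against 9 reads, interval 2.16 to 10.4). Its fitted log2 difference passed in DMSO at 2.62 (SE 0.84, adjusted p = 0.018), but not without SPARK-ON DMSO replicate 2 (0.0506), SPARK-ON DMSO replicate 3 (0.0592) or control DMSO replicate 2 (0.0506), and it was 4.47 without control DMSO replicate 3. With lenalidomide it was 2.15 (SE 0.87, adjusted p = 0.059). IFI44 and IFI44L, neighbours on chromosome 1, did not pass: in DMSO IFI44 was 0.14 (SE 0.094, adjusted p = 0.265) and IFI44L 0.24 (SE 0.099, adjusted p = 0.0587).

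Of the guanylate-binding proteins, GBP1 was higher in SPARK-ON by 0.91 in DMSO (SE 0.20, adjusted p = 0.00132) and 1.37 with lenalidomide (SE 0.23, adjusted p = 0.000135). Its control libraries had 3.03 and 3.46 CPM with lenalidomide and 4.02, 2.86 and 3.20 CPM in DMSO, all below the SPARK-ON libraries given above. GBP2 did not pass, at 0.52 in DMSO (SE 0.23, adjusted p = 0.0816) and 0.07 with lenalidomide (SE 0.26, adjusted p = 0.853). SAMD9 and TRIM22 each passed in 1 comparison, and both stand outside the naming rule and were named after their values were seen. SAMD9 was higher in DMSO at 0.57 (SE 0.20, adjusted p = 0.0268), with control DMSO replicate 1 at 6.84 CPM, against 11.2 and 14.8 CPM in the other control libraries in DMSO. Its call was lost without control DMSO replicate 1 (0.31, adjusted p = 0.0948) or replicate 3 (0.0524), without any 1 of the 3 SPARK-ON DMSO libraries (0.0562 to 0.0731) and with no other groups in the model (0.0544). TRIM22 was higher with lenalidomide at 0.85 (SE 0.29, adjusted p = 0.024), a call lost without SPARK-ON lenalidomide replicate 1 (0.163), control lenalidomide replicate 1 (0.13) or control lenalidomide replicate 2 (0.0603), and 10.7% of its exon bases are shared with OR56B1 on the same strand in GENCODE 29. SAMHD1, which depletes the nucleotides that viruses need, was abundant and did not pass, at 0.10 in DMSO (SE 0.086) and 0.14 with lenalidomide (SE 0.098). ISG20 had 214 reads and XAF1 126 reads in all, and neither passed.

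The rest of the pathway was read from lists of 64 other genes. No ligand could be tested: 7 of 10 interferon genes had 0 reads in all libraries and the other 3 had 6 reads together. Of the receptors and kinases, 7 of 9 were tested, with 1 higher and 1 lower in DMSO and 2 higher and 1 lower with lenalidomide. Over all genes 41.6% and 39.4% were called. IFNGR1, a chain of the interferon gamma receptor, was higher in both comparisons of the lines (0.43 in DMSO, adjusted p = 0.00122, and 0.56 with lenalidomide, adjusted p = 0.000409), IFNGR2 was higher with lenalidomide (0.40, adjusted p = 0.047), and TYK2 was lower in both (-0.45, adjusted p = 5.89e-05, and -0.42, adjusted p = 0.000439). These 3 and JAK1 were named after their values were seen. JAK1 averaged 107 ± 6.56 and 106 ± 3.23 CPM in SPARK-ON with lenalidomide and in DMSO, against 95.7 ± 4.44 and 97.9 ± 11.6 CPM in control with lenalidomide and in DMSO. IFNAR2 had 24 reads over all libraries, and the read-through gene that overlaps it had 0.

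Among sensing adaptors and kinases, 9 of 11 were tested, with 4 higher and 1 lower in DMSO and 5 higher and 1 lower with lenalidomide, where 41.6% and 39.4% of all genes were called. IKBKE, a kinase that phosphorylates IRF3, had 19.3, 17.8 and 14.9 CPM in SPARK-ON with lenalidomide and 16.6, 16.2 and 16.7 CPM in SPARK-ON in DMSO, against 6.07 and 6.81 CPM in control with lenalidomide and 5.05, 5.06 and 5.21 CPM in control in DMSO. As a log2 difference this was 1.69 in DMSO (SE 0.13, adjusted p = 7.36e-09) and 1.44 with lenalidomide (SE 0.15, adjusted p = 4.37e-07). TICAM1, the adaptor of TLR3, was lower at -1.37 in DMSO (SE 0.13, adjusted p = 1.22e-07) and -1.39 with lenalidomide (SE 0.15, adjusted p = 5.58e-07). STING1, TLR3 and TRAF3 were higher in both comparisons and DHX58 with lenalidomide, and these 4 were named after their values were seen. Of 4 inhibitors tested, PTPN2, a phosphatase that acts on JAK1, was lower at -0.57 in DMSO (SE 0.079, adjusted p = 1.29e-05) and -0.71 with lenalidomide (SE 0.089, adjusted p = 4.18e-06). No other inhibitor was called, where 41.6% and 39.4% of all genes were.

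Of 29 other interferon-stimulated genes, 26 were tested, 16 higher and 2 lower in DMSO and 17 higher and 1 lower with lenalidomide. The list was chosen with earlier results of these data known, so its counts cannot be read apart from that choice. Over all genes 21.1% were higher and 20.4% lower in DMSO, and 19.7% and 19.7% with lenalidomide. The median log2 difference of the list was 0.414 in DMSO and 0.538 with lenalidomide, against 0.011 and 0.015 over all genes. LY6E, a lipid-anchored surface protein, had the smallest p of these in both comparisons, with 90.6, 75.3 and 87.4 CPM in SPARK-ON with lenalidomide and 86.6, 80.8 and 88.0 CPM in SPARK-ON in DMSO, against 0.569 and 0.958 CPM in control with lenalidomide and 1.36, 1.13 and 1.43 CPM in control in DMSO. The ratio of summed reads was 64.8 in DMSO (interval 51.5 to 82.7) and 107 with lenalidomide (interval 73.6 to 163). TRIM5, a restriction factor for retroviral capsids, was higher at 1.77 in DMSO (SE 0.12, adjusted p = 1.95e-09) and 1.80 with lenalidomide (SE 0.15, adjusted p = 1.8e-08), and SAMD9L, the paralogue of SAMD9, at 2.57 (SE 0.23, adjusted p = 5.28e-08) and 3.82 (SE 0.31, adjusted p = 2.08e-08). The antigen processing genes TAP1 and PSMB9 were higher as well, TAP1 by 0.94 in DMSO (SE 0.096, adjusted p = 2.91e-07) and 1.07 with lenalidomide (SE 0.11, adjusted p = 4.62e-07), and PSMB9 by 1.88 (SE 0.20, adjusted p = 6.5e-07) and 2.14 (SE 0.24, adjusted p = 1.38e-06). CRBN, which encodes the cereblon that lenalidomide binds, was lower in the SPARK-ON line, at 270 ± 14.3 and 257 ± 14.0 CPM with lenalidomide and in DMSO, against 371 ± 22.6 and 378 ± 14.9 CPM in control with lenalidomide and in DMSO. No gene of these lists passed with lenalidomide within either line in the fit to all 11 libraries. With the 6 SPARK-ON libraries fitted by themselves, 2 of them passed and were named for that: MAVS, the adaptor of RIG-I, at 0.18 (SE 0.044, adjusted p = 0.0133) and PARP12 at 0.35 (SE 0.10, adjusted p = 0.0417). That fit called 2.60% of 14652 genes, and the count from the lists was not tested against that share.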

How the data were processed

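RNA of 14 labelled samples was sequenced; 11 are used here. The authors deposited counts of reads per Ensembl gene in 1 table, and per the submitters' processing notes they used FastQC, fastp, HTSeq and edgeR with hg38. The aligner, annotation and strand setting are not given in the sources used here. Per the labels RNA was extracted with the Quick-RNA Microprep kit. In the table, 3 columns match no labelled sample, so the baseline SH-EP samples are not analysed here. Counts were fitted with edgeR 4.0.16 (R 4.3.3), with TMM scaling, filterByExpr (minimum count 10, 16056 genes kept), 4 groups and a quasi-likelihood test with 7 residual degrees of freedom. Adjusted p is Benjamini-Hochberg over all 16056 genes, with a threshold of 0.05. DESeq2 1.42.0 and limma 3.58.1 were alternatives. CPM uses TMM library sizes, and RPKM divides CPM by exon length in GENCODE 29 (GRCh38), which also gave positions. Positions were found for 58356 of 61533 identifiers. The fitting step was tested on simulated data with the same spread for a gene in all libraries. The lines here differ in spread, at 4.71% in SPARK-ON and 12.9% in control, and that test does not cover this difference. Members past the threshold (at most 25 by p), 12 members set by name, and the 8 pathway genes with the smallest p past the threshold are named. Members without a call are named too, after their values were seen. Members and lists were chosen with earlier results of these data known. Intervals and floors cover counting error only.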

Additional observations from a re-analysis of the deposited data

How the results depend on the processing

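The count of members called with lenalidomide in SPARK-ON cells was 0 in the fit reported, 1 with DESeq2 and 1 when only the groups compared were fitted, and 1 to 2 when 1 library was then left out of that fit. Over all genes that comparison called 11 genes, 45 with DESeq2 and 381 in the fit of the 6 libraries alone. With 1 library left out of the fit reported, members called were 20 to 25 in DMSO between the lines and 18 to 24 with lenalidomide between the lines. They were 0 in the other 3 comparisons. Over all genes those fits called 2854 to 3433 higher and 2716 to 3494 lower in DMSO, of 15859 to 16038 tested. With lenalidomide they called 2471 to 2865 higher and 2584 to 2804 lower, of 15962 to 17433 tested. In the other 3 comparisons they called at most 15 higher and 6 lower. Of 47 calls between the lines, 37 were kept under every alternative that gave the gene an adjusted p, and 10 were lost under at least 1. OAS1, MX2 and IFI27, with few reads, had no adjusted p under some alternatives, and those are not counted. Of 629 values under alternatives, 602 kept call and direction, 27 lost the call and 0 changed direction. The cause of the lost calls was not tested. Same-numbered replicates did not deviate together (r of -0.182 to 0.0372 over 15 pairs). The labels do not say whether the numbers pair the samples, and with groups of 2 or 3 libraries these values cannot decide it. With the replicate number as a block, 23 members were called in DMSO (18 higher, 5 lower) and 23 with lenalidomide (19 higher, 4 lower). Over all 16056 genes that fit called 3116 higher and 2965 lower in DMSO, and 2850 and 2795 with lenalidomide. It called 0 members in the other 3 comparisons, and the call lost was USP18 in DMSO (0.44, edgeR adjusted p = 0.0552). Depth limits OAS1, OAS2, MX2 and IFI27, whose control groups held 2 to 10 reads, and the control group with lenalidomide has 2 libraries. The lines differ in clone as well as in SPARK-ON.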
